A study of Mus musculus with 6 samples.

Results

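Syndecans and glypicans are the 2 families of cell surface proteins that carry heparan sulfate. Their 10 genes, Sdc1 to Sdc4 and Gpc1 to Gpc6, were taken from the 19321 genes that the array annotation names, by symbol and whatever their values. All 10 were on the array, with 11 probes, and for Gpc4, the gene with more than 1 probe, the brighter by its mean over the 6 arrays was used. All 10 were above background on all 6 arrays, so no filter on low values removed a member from the 18372 genes tested.

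Syndecans cross the membrane, while glypicans are held on its outer face by a lipid anchor, and the protein core of each carries long sulfated sugar chains. Those chains bind growth factors such as FGF, HGF, Wnt and BMP proteins, as well as matrix proteins, and so shape how a cell receives them. In muscle, SDC3 and SDC4 are known as surface proteins of satellite cells, SDC1 (CD138) is known as a marker of plasma cells, and glypicans are known from the developing limb and from connective tissue.

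RNA came from cells freshly sorted from hind limb muscle of C57BL/6 mice, with no allele or treatment named in the labels. The 3 populations were PDGFRa+ mesenchymal progenitors (the fibroblast and adipocyte precursors between the fibres), satellite cells (stem cells beneath the sheath of each fibre) and a mixture of CD31+ (endothelial) or CD45+ (hematopoietic) cells, here CD31/CD45 cells. Each was taken from young mice of 8 to 10 weeks and from aged mice of 24 to 28 months. Cells of repeated sorts were pooled for 1 array per population and age, so a population had 2 arrays that differ in age, and an age within a population had 1. The surface proteins used to sort satellite cells, the number of mice and their sex are not given in the sources used here. The submitters' question was which genes are particular to a population and which change with age.

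On each array 88.43% to 92.32% of 23473 probes were above background. Intensities are those of the authors' value table, in which the median probe of each array is 25 and the background limit lay at 0.663 to 0.911. Intensities of different probes are not comparable, so only the same probe is compared between arrays. The labels were checked against marker genes: 10 of 11 mesenchymal, 11 of 12 satellite cell, 10 of 10 endothelial and 10 of 10 hematopoietic markers were brightest in their own population at both ages. The mesenchymal marker list summed to 9834 on the young and 12680 on the aged satellite array, against 93470 and 79170 on the PDGFRa+ arrays. Scanner gain factors in the file headers divide the arrays into 2 scanner sets. Set 1 holds both PDGFRa+ arrays and the young satellite array, and set 2 holds the other 3. In bulk RNA, fewer cells of a type and less RNA per cell cannot be told apart.

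Results below turn on Sdc4, the member called higher in satellite cells than in both other populations, and on Gpc3 and Gpc4, which are neighbours on the X chromosome with 0 protein-coding genes between them and had unlike profiles. Their RefSeq promoters (250 bases up to the transcription start, GRCm38.p6) are printed 5′ to 3′ on the strand of the gene. Capitals mark the GC box, GGGCGG or its reverse complement CCGCCC. Sdc4 lies at chr2:164443189-164443438, minus strand. Gpc3 lies at chrX:52613975-52614224, minus strand. Gpc4 lies at chrX:52164924-52165173, minus strand.
Sdc4: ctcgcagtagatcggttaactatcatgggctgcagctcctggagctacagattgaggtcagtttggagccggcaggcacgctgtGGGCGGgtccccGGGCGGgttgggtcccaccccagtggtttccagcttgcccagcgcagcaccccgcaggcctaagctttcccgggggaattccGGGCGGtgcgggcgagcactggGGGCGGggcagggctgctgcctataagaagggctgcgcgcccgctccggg
Gpc3: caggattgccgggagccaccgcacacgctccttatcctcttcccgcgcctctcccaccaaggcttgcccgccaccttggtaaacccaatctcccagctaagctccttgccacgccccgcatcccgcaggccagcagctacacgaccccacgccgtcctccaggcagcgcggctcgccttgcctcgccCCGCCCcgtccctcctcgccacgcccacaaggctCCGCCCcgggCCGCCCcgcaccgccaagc
Gpc4: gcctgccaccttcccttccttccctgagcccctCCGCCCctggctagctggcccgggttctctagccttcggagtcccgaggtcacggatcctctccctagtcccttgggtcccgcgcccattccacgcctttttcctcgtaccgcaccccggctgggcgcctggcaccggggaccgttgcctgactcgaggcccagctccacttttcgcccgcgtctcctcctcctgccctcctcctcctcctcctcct

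A promoter entry was found for 7 of the 10 members (Sdc1, Sdc3, Sdc4, Gpc2, Gpc3, Gpc4 and Gpc5). A GC box was present in 7 of these 7, against 32.7% of 32851 promoters searched in the same window, and their GC content ran from 51.2% in Gpc5 to 76.4% in Sdc3, against a median of 52.4%. Sdc4 held 4 GC boxes, Gpc3 held 3 and Gpc4 held 1. The letters TATAA, found in 22.8% of promoters on either strand, began at position -29 in Sdc4 and were absent from the windows of Gpc3 and Gpc4. The E-box CANNTG, found in 66.2% of promoters, was present once each in Sdc1 and Gpc2 and in none of the 3 promoters printed. These matches describe letters in the window and nothing more.

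Sdc4 separated satellite cells from both other populations. SDC4 is a syndecan that gathers at focal adhesions and signals together with integrins and FGF receptors. Its probe (M200001461) read 3870.4 on the young and 3660 on the aged satellite array. It read 350.3 and 509.8 on the young and aged PDGFRa+ arrays, and 192.7 and 151.7 on the young and aged CD31/CD45 arrays. Both satellite arrays stood far above the other 4. The aged array differed from the young one by log2 0.01 in satellite, 0.62 in PDGFRa+ and -0.25 in CD31/CD45 cells. PDGFRa+ cells were lower than satellite cells by 2.89 on the log2 scale (SE 0.24, limma adjusted p = 0.0108), a 7.41-fold difference on that scale. Satellite cells were 16.1-fold higher than CD31/CD45 cells (log2 4.01, SE 0.24, adjusted p = 0.00351). Between arrays of 1 scanner set the differences were as large, at -3.19 for young PDGFRa+ less young satellite cells and 4.14 for aged satellite less aged CD31/CD45 cells. The call against PDGFRa+ cells was lost without the young PDGFRa+ array (-2.55, adjusted p = 0.062) and without the young satellite array, while that against CD31/CD45 cells held without any of the 6 arrays. PDGFRa+ cells were also above CD31/CD45 cells (log2 1.12, SE 0.24, adjusted p = 0.0475). Of the 6 fits with an array left out, where it ran from 0.75 to 1.48, the call held in 1, the fit without the young PDGFRa+ array, and it was also lost with median scaling, with no filter on dim probes, with the scanner set as a block and with the local background.

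Sdc2 had a graded order, highest in PDGFRa+ cells, intermediate in satellite cells and lowest in CD31/CD45 cells. SDC2 is the syndecan typical of mesenchymal cells such as fibroblasts. Its probe (M200006442) read 1418.3 and 1140.5 on the young and aged PDGFRa+ arrays, 216.3 and 259.5 on the satellite arrays, and 44.4 and 50.3 on the CD31/CD45 arrays. The 3 pairs of values did not overlap. PDGFRa+ cells exceeded satellite cells 4.47-fold (log2 2.16, SE 0.14, limma adjusted p = 0.00819) and CD31/CD45 cells 15.3-fold (3.94, SE 0.14, adjusted p = 0.00184). Satellite cells exceeded CD31/CD45 cells 3.43-fold (1.78, SE 0.14, adjusted p = 0.00562). Both steps down to CD31/CD45 cells held with any 1 array left out, and the step between PDGFRa+ and satellite cells was lost without the young PDGFRa+ array alone (adjusted p = 0.062). All 3 calls were lost with the local background around each spot, which followed the spot's own signal (correlation of logs 0.961 to 0.980).

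The remaining syndecans, Sdc1 and Sdc3, were not called between populations. Sdc1 (M200000982) encodes the syndecan of epithelia and plasma cells. It read 35.7 and 60.6 on the young and aged PDGFRa+ arrays, 19.3 and 91.7 on the satellite arrays and 24.3 and 36.7 on the CD31/CD45 arrays. The highest and the lowest values were thus both satellite arrays, and the populations overlapped. The 95% interval of the difference between PDGFRa+ and satellite cells ran from -0.82 to 0.82. Sdc3 (M300004746), known for its expression in nerve and muscle precursors, read 2.9 and 4.1 on the satellite arrays, 3.2 and 3.9 on the PDGFRa+ arrays and 5.9 and 9.0 on the CD31/CD45 arrays. These values are above the background limit but small beside the offset of 50 scanner counts used before the log2 step, which equals 26.5 to 42.1 in table units, so their differences are compressed. Both CD31/CD45 arrays were above the other 4, and satellite cells were not above the other populations for Sdc3 (0.14 below CD31/CD45 cells, SE 0.04, adjusted p = 0.066), and how well this probe reports the transcript was not tested. On the log2 values of the authors' table, which carry no offset, Sdc3 was lower in PDGFRa+ (-1.05, adjusted p = 0.0139) and satellite cells (-1.08, adjusted p = 0.0111) than in CD31/CD45 cells.

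**Figure D1:**
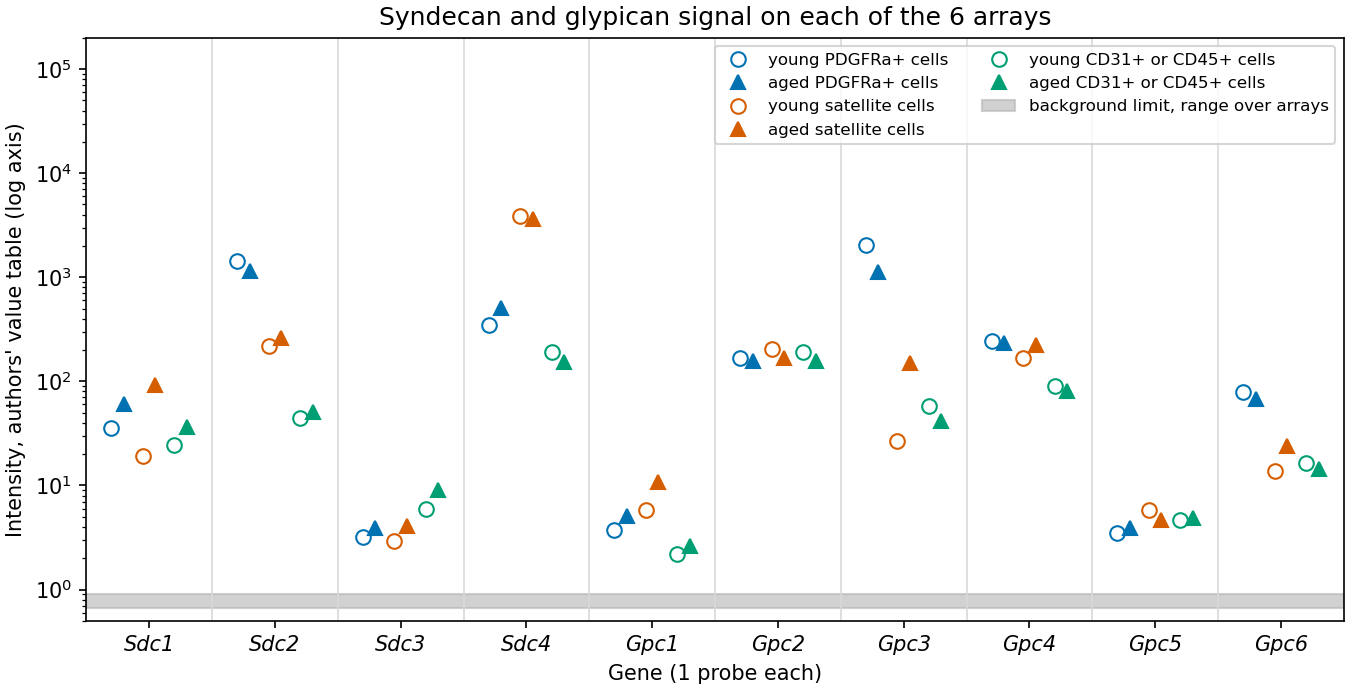
Intensity of each member on each of the 6 arrays in the authors' value table (log axis; open circles young, filled triangles aged, 1 colour per population, 1 probe per gene); the grey band is the background limit. The satellite points of Sdc4 (3870.4 and 3660) and the PDGFRa+ points of Sdc2 and Gpc3 stand above the others of their gene, while the points of Gpc2 lie between 155.5 and 202.4.

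Among glypicans, Gpc3 marked PDGFRa+ cells. GPC3 is an anchored proteoglycan that restrains growth, and its loss causes an overgrowth syndrome. Its probe (M400005249) read 2059.6 on the young and 1127.4 on the aged PDGFRa+ array, 26.7 on the young and 150 on the aged satellite array, and 57.5 and 41.7 on the young and aged CD31/CD45 arrays. Both PDGFRa+ arrays were far above the other 4, and the satellite arrays lay on either side of the CD31/CD45 arrays. PDGFRa+ cells were above satellite cells by 3.78 (SE 0.69, log2, limma adjusted p = 0.0377) and above CD31/CD45 cells by 4.17 (SE 0.69, adjusted p = 0.0264). The SE is the largest among the members. An age difference that the populations do not share enters this error. Within scanner set 1, young PDGFRa+ exceeded young satellite cells by 4.99 on the log2 scale, which the offset compresses for the dim satellite value. The ratio of their intensities in the authors' table, which carries no offset, was 77.1. The call against satellite cells was lost without either PDGFRa+ array or either CD31/CD45 array. Over all 6 fits with an array left out, that difference ran from 2.70 to 4.87. The call against CD31/CD45 cells was lost without the same arrays, at 3.43 or more. Satellite and CD31/CD45 cells did not differ beyond the error (0.39, SE 0.69, adjusted p = 0.734). With the scanner set as a block, which rests on the satellite pair since both other pairs lie within a set, the difference was 1.48 (SE 0.21, adjusted p = 0.0477) and called. It was -0.69 without the aged satellite array and 1.498 (adjusted p = 0.0424) without the young one.

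Gpc6 was also higher in PDGFRa+ cells than in both other populations. GPC6 is a glypican close to GPC4 in sequence, required for long bone growth. Its probe (M400006394) read 78.6 and 67.5 on the young and aged PDGFRa+ arrays, 13.7 and 23.7 on the satellite arrays and 16.4 and 14.3 on the CD31/CD45 arrays. The PDGFRa+ arrays lay above the others and the remaining 4 overlapped. The difference was 1.04 against satellite cells (SE 0.11, log2, limma adjusted p = 0.0150) and 1.12 against CD31/CD45 cells (SE 0.11, adjusted p = 0.00915). Less compressed scales gave more, at 1.65 and 1.82 with an offset of 10 and 2.02 and 2.25 on the authors' table. The difference from satellite cells lies just past the 2-fold limit and was lost with median scaling, with the local background, and without the young PDGFRa+, the aged PDGFRa+ or the young satellite array (lowest value 0.88). That from CD31/CD45 cells was lost with the local background and without either PDGFRa+ array or the aged CD31/CD45 array, where it ran no lower than 1.01. Gpc5, the neighbour of Gpc6 on chromosome 14 with 0 protein-coding genes between them, read 3.5 to 5.8 over the 6 arrays (M300003098), and no population comparison passed.

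Gpc4 was higher in PDGFRa+ than in CD31/CD45 cells, by an amount that depended on the probe. GPC4 is a glypican of progenitor cells that modulates Wnt signalling. The brighter probe (M400016182) read 245.7 and 231.1 on the young and aged PDGFRa+ arrays, 166.8 and 224.8 on the satellite arrays and 89.6 and 79.9 on the CD31/CD45 arrays. PDGFRa+ and satellite cells thus lay close together, with CD31/CD45 cells below both. PDGFRa+ cells exceeded CD31/CD45 cells by 1.18 (SE 0.15, log2, limma adjusted p = 0.0163). Satellite cells exceeded them by 0.99 (SE 0.15, adjusted p = 0.0197), which falls just short of 2-fold. The other probe (M200000621) read 265.3 and 189.3, 172.7 and 141.7, and 135.3 and 118.6 in the same order, and with it the PDGFRa+ excess over CD31/CD45 cells was 0.67 and not called. The call on the brighter probe was also lost without either PDGFRa+ or either CD31/CD45 array, where it ran no lower than 1.00.

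Neither Gpc2 nor Gpc1 was called between populations. Gpc2 (M400012222), known from developing neurons, read 155.5 to 202.4 over the 6 arrays, the narrowest spread of the brighter members. Its 95% intervals lay inside a 2-fold change in each comparison, as in that of PDGFRa+ less satellite cells, which ran from -0.43 to 0.01. Gpc1 (M400001663), the glypican known from nerve and from muscle differentiation, read 5.8 and 10.9 on the young and aged satellite arrays, 3.7 and 5.1 on the PDGFRa+ arrays and 2.2 and 2.6 on the CD31/CD45 arrays. Satellite arrays were the brightest for Gpc1, with 2.64 times the intensity of CD31/CD45 cells in young and 4.19 times in aged mice. The offset compresses this dim probe too. The difference from CD31/CD45 cells was 0.21 (SE 0.06, log2, limma adjusted p = 0.065), and on the log2 values of the authors' table, with no offset, it was 1.73 (adjusted p = 0.00643).

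By count, 4 of the 10 members were called between PDGFRa+ and satellite cells, against 7.29% of the 18372 genes tested. Higher in PDGFRa+ cells were 3 (background 4.09%) and lower was 1 (3.2%). A gene was called at a limma adjusted p under 0.05 with at least 2-fold. Against CD31/CD45 cells 5 members were higher in PDGFRa+ cells (4.7%) and 0 lower (5.4%), with a called background of 10.1%. Between satellite and CD31/CD45 cells 2 were higher in satellite cells (5.12%) and 0 lower (6.57%), with a background of 11.7%. The median log2 difference of the members was 0.75 between PDGFRa+ and CD31/CD45 cells, against 0.012 for all genes, 0.29 against 0.022 between satellite and CD31/CD45 cells, and 0.0069 against -0.0088 between PDGFRa+ and satellite cells. Higher than in both other populations were Sdc2, Gpc3 and Gpc6 in PDGFRa+ cells (2.43% of genes), Sdc4 in satellite cells (2.13%) and no member in CD31/CD45 cells (4.55%).

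The counts rest on few arrays. Shares of all genes are given for the main fit alone, so the counts below have no background to be read against. Leaving out the young PDGFRa+ array brought the count between PDGFRa+ and satellite cells to 0, and leaving out its aged partner or the young satellite array brought it to 2. Between PDGFRa+ and CD31/CD45 cells it was 1 without the aged PDGFRa+ or the aged CD31/CD45 array, and 2 without the young array of either population. Between satellite and CD31/CD45 cells it was 4 without the young satellite array. With the local background the 3 counts were 0, 0 and 1, and the member left was Sdc4.

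**Figure D2:**
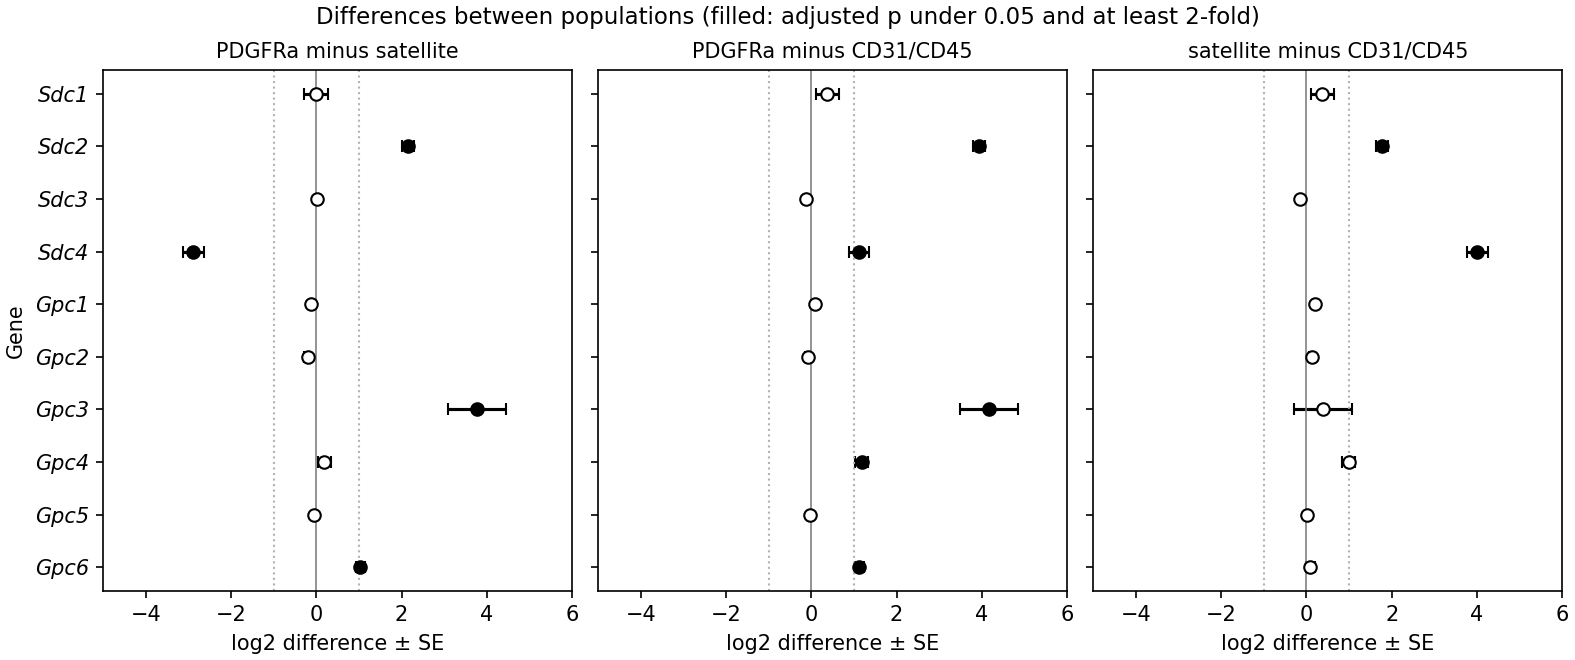
Log2 difference between populations for each member, with bars of 1 SE on either side from the limma fit over 6 arrays (filled where called, dotted lines at 2-fold). Sdc4 lies at -2.89 and 4.01 in the comparisons with satellite cells, and Gpc3 has the widest bars (SE 0.69).

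The age comparison gave no call. For the difference shared by the 3 populations, 0 of 10 members passed. By limma with Benjamini-Hochberg adjustment 0 of 18372 genes (0%) did so, while 2026 genes (11%) had an unadjusted p under 0.05. Among the members, Sdc1 alone was at such a p (log2 0.68, SE 0.23, unadjusted p = 0.0473, adjusted p = 0.445), with the aged array above the young one in 3 of 3 populations. The intervals of the other members all spanned 0. That of Sdc2 ran from -0.28 to 0.40, and that of Gpc3 from -1.45 to 1.84.

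Within a population 1 aged array stood against 1 young array, with no test. In satellite cells 2 of 10 members differed at least 2-fold, against 1.23% of genes. Sdc1 was at 19.3 in young and 91.7 in aged cells (log2 1.26), and Gpc3 at 26.7 and 150 (log2 1.64). Both were dim on the young array and higher on the aged one. The offset compresses these log2 values, and the ratios of intensities, aged over young, were 4.75 for Sdc1 and 5.62 for Gpc3. In PDGFRa+ cells 0 members (0.425% of genes) and in CD31/CD45 cells 0 members (0.58%) differed by that much. Gpc3 was lower in aged PDGFRa+ cells (2059.6 to 1127.4, log2 -0.78) and Sdc4 was higher (350.3 to 509.8, log2 0.62). Sdc4 in satellite cells, at 3870.4 and 3660, had a log2 difference of 0.01. With the local background 1 member passed in PDGFRa+ cells, Sdc2 at -1.16, and 1 in satellite cells, Gpc3 at 1.49.

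Other measures moved with the satellite age pair. Its arrays belong to different scanner sets, so set and age cannot be told apart there. Several marker lists of other cells, though not all, had brighter sums on the aged satellite array. The mesenchymal list had 10 of 11 members higher, with Pdgfra at 7.6 and 60.6. The tendon list had 6 of 6 higher (sum 838.1 and 3229), the pericyte and smooth muscle list 9 of 10 (5773 and 9613), the myofibre list 8 of 8 (2683 and 4911) and the hematopoietic list 9 of 10 (266.6 and 1124). The B and plasma cell list, in which SDC1 is a marker of the plasma cells, had 4 of 8 higher (39.9 and 36.7). The endothelial list had 6 of 10 higher (906.8 and 984.5), the T and NK cell list 2 of 7 (23 and 19.5) and the glial list 3 of 4 (224.9 and 294.9). The satellite cell list itself had 2 of 12 higher (24910 and 18650). The part of these in the higher Gpc3 and Sdc1 values was not tested. In CD31/CD45 cells the B and plasma cell list summed to 350.1 in young and 1456 in aged cells, with 8 of 8 higher and Mzb1 at 25.4 and 759.2, while Sdc1 read 24.3 and 36.7.

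**Figure D3:**
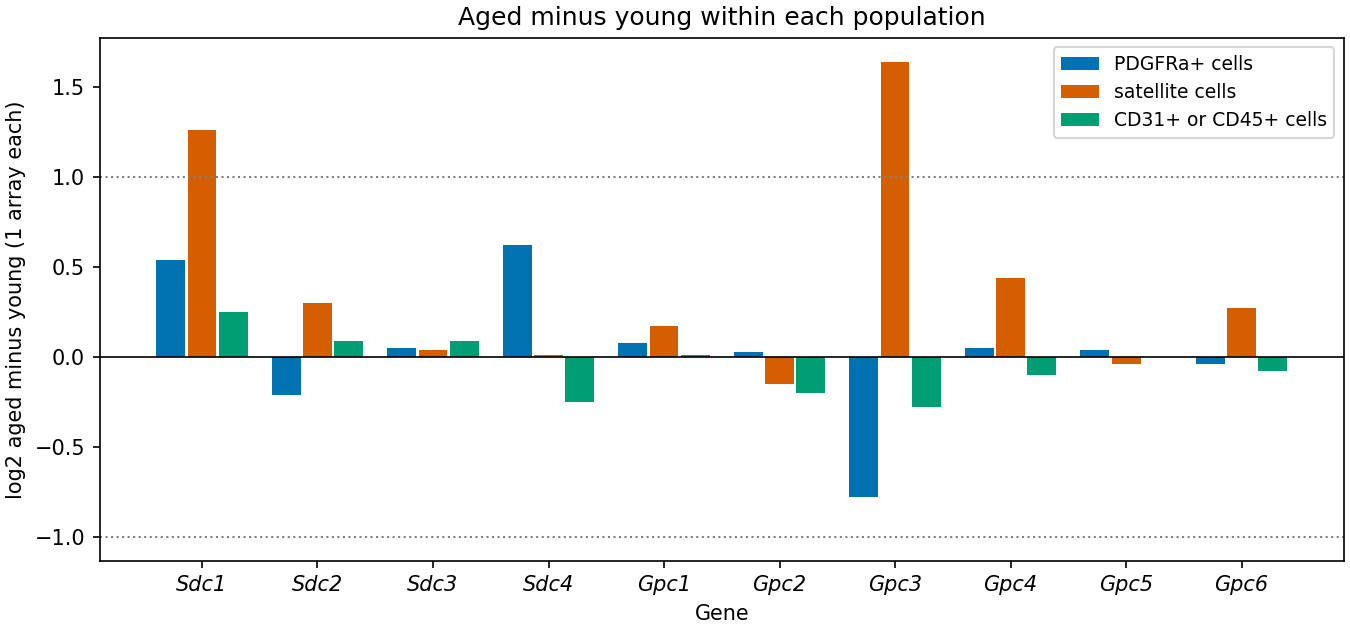
Log2 difference of the aged less the young array for each member in each population, 1 array against 1, with no error available (dotted lines at 2-fold). Gpc3 at 1.64 and Sdc1 at 1.26 in satellite cells lie past 2-fold, and Gpc3 lies at -0.78 in PDGFRa+ cells.

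The enzymes that build and modify the sugar chains, and proteins that bind or shed the cores, were read from 4 lists with 57 genes tested. Between PDGFRa+ and satellite cells 8 were higher and 2 lower, between PDGFRa+ and CD31/CD45 cells 6 higher and 5 lower, and between satellite and CD31/CD45 cells 5 higher and 10 lower. The background shares are those given for the members, and they hold for the main fit alone. The 3 totals, 10, 11 and 15, were 1, 3 and 2 with the local background and 19, 20 and 21 with the authors' value table. Between PDGFRa+ and CD31/CD45 cells the total was 17 without background correction and 18 with the smaller offset of 10. Leaving out 1 PDGFRa+ array took the total between PDGFRa+ and satellite cells to 0 (young) or 3 (aged), and the total between PDGFRa+ and CD31/CD45 cells was 7 without the aged PDGFRa+ array and 5 with the scanner set as a block. In the order of these comparisons, the list medians on the log2 scale were 0.24, 0.30 and 0.17 for chain assembly, 0.071, 0.0095 and 0.0033 for modification and degradation, 0.28, -0.17 and -0.31 for partners and release, and 0.32, 0.30 and 0.025 for the other proteoglycans. Those of all genes were -0.0088, 0.012 and 0.022. Single calls among these genes held in 8 to 16 of 16 alternative fits, in all cases with the direction kept. With another filter, with cell type alone or with the other Gpc4 probe, these log2 differences could not change. None of the 57 was called for age or reached 2-fold in an age pair on the log2 scale, which the offset compresses. By the ratio of intensities 3 differed at least 2-fold between the ages in PDGFRa+, 4 in satellite and 1 in CD31/CD45 cells. The share of all genes at that ratio was not counted, so these counts have no background to be read against. Some of the genes were dim, such as Mmp9 at 1 and 2 on the young and aged satellite arrays. Hs6st2 read 9 and 4.5 on the young and aged CD31/CD45 arrays. Among the brighter genes, and chosen after their values were seen, Nrp1 read 27.1 in young and 79.7 in aged satellite cells. Hpse, the heparanase gene, read 171.7 and 68.5 in PDGFRa+ cells.

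Of 12 chain assembly genes 1 was called in each comparison, and it was Pxylp1. The shares of all genes called were 7.29% between PDGFRa+ and satellite cells and 10.1% between PDGFRa+ and CD31/CD45 cells. Between satellite and CD31/CD45 cells the share was 11.7%. PXYLP1 is the phosphatase that clears the linker xylose so that the chain can grow. It read 221.3 and 196.8 on the young and aged PDGFRa+ arrays, 73.6 and 78.1 on the satellite arrays and 11.8 and 15.5 on the CD31/CD45 arrays. Its order was that of Sdc2. PDGFRa+ cells were above satellite cells by 1.12 (SE 0.05, log2, limma adjusted p = 0.00553), and satellite cells above CD31/CD45 cells by 1.20 (SE 0.05, adjusted p = 0.00198). Ext1 and Ext2, which polymerise the chain, were above background in every population and not called, as they fell short of 2-fold. Ext1 was 0.90 higher in PDGFRa+ than in satellite cells (limma adjusted p = 0.0408). Ext2 was higher in PDGFRa+ cells by 0.28 against satellite cells (adjusted p = 0.0404) and 0.47 against CD31/CD45 cells (adjusted p = 0.0121).

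Of 22 modification and degradation genes tested, 2 were higher and 1 lower in PDGFRa+ than in satellite cells. Against CD31/CD45 cells 2 were higher and 1 lower in PDGFRa+ cells, and 3 higher and 2 lower in satellite cells. Over all genes, 7.29%, 10.1% and 11.7% were called in these comparisons. Hs6st2, a 6-O-sulfotransferase, was brightest in satellite cells, at 627.5 and 652.3 on the young and aged satellite arrays and at most 10.4 on the others. Satellite cells exceeded CD31/CD45 cells by 4.07 (SE 0.09, log2, limma adjusted p = 0.000961), and PDGFRa+ less satellite cells stood at -3.96 (adjusted p = 0.00392). Sulf2, an endosulfatase that removes 6-O-sulfates outside the cell, was higher in PDGFRa+ than in satellite cells (1.18). Its difference in PDGFRa+ less CD31/CD45 cells was 0.998 (limma adjusted p = 0.00268), just short of 2-fold. Sulf1, the other enzyme of this kind, was above CD31/CD45 cells in PDGFRa+ (1.91) and satellite cells (1.49). Hs3st1, a 3-O-sulfotransferase that makes the site bound by antithrombin, was highest in CD31/CD45 cells (310.1 and 274) and lowest in satellite cells (20.3 and 37.2). It stood at -1.10 in PDGFRa+ and -2.38 in satellite cells against CD31/CD45 cells. The former call was lost with the scanner set as a block (-0.73, adjusted p = 0.17), with the local background (-0.13) and without either PDGFRa+ or the young CD31/CD45 array. Papss2, which makes the sulfate donor, was lower in satellite than in CD31/CD45 cells (-1.43), and Hs2st1, the 2-O-sulfotransferase, was higher in PDGFRa+ (1.07, not called with the block at 0.87) and satellite cells (1.44).

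Of 16 genes on the list of partners and release factors, 4 were higher in PDGFRa+ than in satellite cells and 0 lower. Against CD31/CD45 cells 2 were higher and 2 lower in PDGFRa+ cells, and 6 lower and 0 higher in satellite cells. Over all genes, 7.29%, 10.1% and 11.7% were called in these comparisons. The list holds Synm, which is not established as a syndecan partner. Of the 15 genes without it, 3 were higher and 0 lower, 2 higher and 2 lower, and 5 lower and 0 higher in the same comparisons. Mmp14, a membrane protease known to shed syndecans, read 208.9 and 263.3 on the young and aged PDGFRa+ arrays, 37.2 and 71.1 on the satellite arrays and 14.6 and 20 on the CD31/CD45 arrays. PDGFRa+ cells exceeded CD31/CD45 cells by 2.35 (SE 0.13, log2, limma adjusted p = 0.00337), a call that held in all 16 alternative fits, local background included. Prkca, the kinase recruited by SDC4, was higher in PDGFRa+ than in satellite (1.61) and CD31/CD45 cells (1.44). Sdcbp encodes syntenin, which binds the tails of syndecans. It was lower in satellite cells than in both other populations (1.18 for PDGFRa+ less satellite cells, -1.45 for satellite less CD31/CD45 cells). The sheddases Adam10 (-1.13) and Adam17 (-1.13), the GTPase gene Rhog (-1.29), the syntenin paralog Sdcbp2 (-1.33) and Synm, which encodes an intermediate filament protein (-1.20), were also lower in satellite than in CD31/CD45 cells. Adam10 (-1.12) and Sdcbp2 (-1.33) were lower in PDGFRa+ than in CD31/CD45 cells, and Synm was higher in PDGFRa+ than in satellite cells (1.02). When scanner set was blocked, none of these calls on Adam10, Adam17, Sdcbp2 and Synm held, with Adam10 at -0.81 (adjusted p = 0.0842) and Sdcbp2 at -1.71 (adjusted p = 0.137) in PDGFRa+ less CD31/CD45 cells.

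Of 7 other genes whose proteins can carry heparan sulfate or a related chain, 1 was higher and 1 lower in PDGFRa+ than in satellite cells. In PDGFRa+ less CD31/CD45 cells 1 was higher and 2 lower, as in satellite less CD31/CD45 cells. Over all genes, 7.29%, 10.1% and 11.7% were called in these comparisons. Srgn, the proteoglycan of secretory granules, was brightest in CD31/CD45 cells (5078.4 and 4880.2) and lower in PDGFRa+ (-5.71) and satellite cells (-4.24). Nrp1, a receptor for semaphorins and VEGF, was likewise highest there (-1.99 in PDGFRa+ and -3.87 in satellite cells). The Nrp1 call for PDGFRa+ less CD31/CD45 cells held in 10 of 16 alternative fits. It was lost with the scanner set as a block (-0.84, adjusted p = 0.0728), with the authors' table (adjusted p = 0.0561) and without any 1 of the 4 arrays of those populations. Between PDGFRa+ and satellite cells Srgn stood at -1.48 and Nrp1 at 1.87, calls that held in 10 and 12 of 16 alternative fits. Tgfbr3, betaglycan, was higher in satellite than in CD31/CD45 cells (1.46). In PDGFRa+ less CD31/CD45 cells it stood at 0.998 (limma adjusted p = 0.0202), just short of 2-fold. Col18a1, a basement membrane collagen, was higher in PDGFRa+ than in CD31/CD45 cells (1.16, not called with the block at adjusted p = 0.0801).

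**Figure D4:**
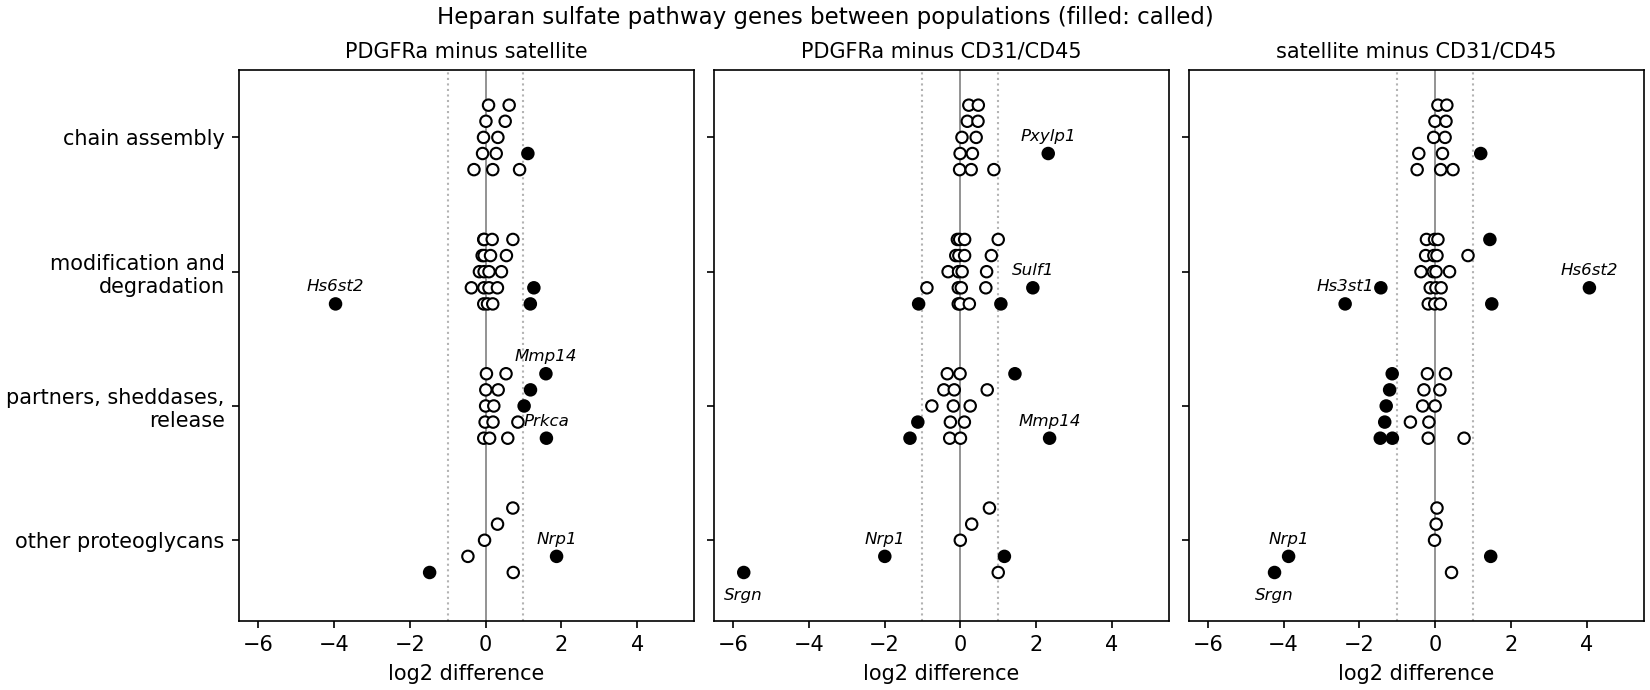
Log2 difference between populations for the 57 pathway genes tested, by list, 1 point per gene (filled where called, dotted lines at 2-fold, names where the called difference is at least 1.5; height within a list separates the points and has no meaning). Hs6st2 lies at -3.96 and 4.07 in the comparisons with satellite cells, and Srgn at -5.71 and -4.24 in those with CD31/CD45 cells.

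Genes with the most similar profile were found by the root mean square difference between log2 values over the 6 arrays, each centred on its own mean, for the 4 members with the widest range. For Sdc4 they were Adcy2 (0.0756), Tubb2b (0.308) and Sytl2 (0.351). For Gpc3 they were Ctsk (0.273), Vit (0.284) and Angptl7 (0.339). Ctsk, which encodes the protease cathepsin K, read 1382.3 and 1117.9 on the young and aged PDGFRa+ arrays, 19.9 and 134.8 on the satellite arrays and 19 and 19 on the CD31/CD45 arrays. The higher value of its aged satellite array is part of the profile by which it was chosen. For Sdc2 they were Cpq (0.119), Nbl1 (0.192) and Bdh2 (0.204), and for Gpc4 Dlg3 (0.071), Lrig3 (0.0818) and Fgd1 (0.0853).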

How the data were processed

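Each of the 6 samples has a scanner file and a column in a table of all arrays. Scanner files hold, per the file headers, the median spot intensity at 635 nm, merged from 3 scanner gains. The deposited value table gives the authors' linear intensity, with a median of 25 per array. Checked against the scanner files, it equals (largest difference 0.0932) the spot median after subtraction of a trimmed mean (5% at each end) of 2736 blank spots, times 1 constant per array, and it is empty at or below that mean plus 2 trimmed SD. The genome build and the authors' software are not given in the sources used here.

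The deposited scanner intensities were put on the log2 scale here with limma 3.58.1 in R 4.3.3 (normexp against the blank-spot mean, offset 50, quantile normalisation). The offset understates differences of dim probes. The array annotation, with symbols brought up to date through Entrez identifiers, named 20690 of 23473 probes. The brightest probe was taken for each gene, and 18372 genes above background on at least 2 arrays were tested.

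A model with cell type and age was fitted to all 6 arrays (lmFit and eBayes, two-sided, residual degrees of freedom 2, prior 1.5), with Benjamini-Hochberg adjustment over all genes tested in each comparison. The median moderated SD was 0.061 on the log2 scale. No population and age has a replicate, so p-values rest on the spread within pairs of arrays that differ in age. The number of arrays limits the precision. The age pairs had no test. The fit was tested on simulated data. Alternatives changed the background, offset, scaling, filter, probe, model and arrays used.

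The members and lists were chosen with earlier results of these data known. The text names all members, up to 6 called genes per pathway list and comparison, and the 3 nearest profiles of the 4 members with the widest range. Motifs were searched on both strands of RefSeq promoters (GRCm38.p6), a build not tied to the array files. Ndst1 and Hs3st4 of the lists were not named on the array and are not analysed here. Python 3.11.15 and matplotlib 3.10.9 drew the figures.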

Additional observations from a re-analysis of the deposited data

Results flagged for a closer look

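Gpc3 differed in opposite directions between the ages in 2 populations. The aged satellite array was above the young one (log2 1.64), and the aged PDGFRa+ array below the young one (log2 -0.78), which puts the satellite difference 2.42 above that of PDGFRa+ cells. With 1 array on each side the difference between populations was not tested. The satellite arrays belong to different scanner sets and the PDGFRa+ arrays to 1, and the mesenchymal and tendon marker sums were higher on the aged satellite array. The part of these in the result was not tested.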

How the results depend on the processing

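The 11 called differences kept their direction in all 176 values under the alternatives, and 135 of those were also called. In part this was fixed in advance. A change of filter, or a model with cell type alone, left the log2 difference between populations as it was, and only the call could change. The other probe of Gpc4 could change no log2 difference but that of Gpc4. Of 454 alternative values of the 29 differences not called, 10 were called, among them Gpc4 in satellite less CD31/CD45 cells at 1.14 without background correction, at 1.19 when the offset was 10 and at 1.22 with the scanner set as a block. Members called in the 3 population comparisons, in the order of the report, numbered 0, 0 and 1 with the local background. Between satellite and CD31/CD45 cells there were 5 with the authors' value table and 4 with the scanner set as a block. With an array left out the counts ran from 0 to 4, from 1 to 4 and from 2 to 4, and stayed at 0 for age. In the age pairs the local background gave 1 member in PDGFRa+ and 1 in satellite cells. The shares of all genes in these alternative fits are not given, so these counts cannot be set against a background.

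Differences with the other sign were all uncalled. With the local background they were 0.0101 for Gpc1 (PDGFRa+ less satellite), -0.0191 for Gpc6 (satellite less CD31/CD45), -0.17 for Sdc1 (aged less young CD31/CD45), and for shared age 0.46 for Gpc2, -0.0416 for Gpc4, -0.16 for Gpc6 and -0.29 for Sdc2. Median scaling gave -0.0280 for Sdc1 (PDGFRa+ less satellite), 0.0900 for Gpc5 (PDGFRa+ less CD31/CD45) and -0.14 for Gpc2 (satellite less CD31/CD45). The scanner set as a block gave -0.0019 for Sdc3 (PDGFRa+ less satellite), -0.0173 for Gpc5 (satellite less CD31/CD45) and, for shared age, -0.53 for Gpc3, -0.0225 for Gpc4, 0.0199 for Gpc5, -0.0602 for Gpc6 and -0.0623 for Sdc2. For shared age Gpc5 was at 0.000479 with an offset of 10 and Gpc4 at -0.20 with its other probe. The cause was not tested.

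With an array left out, PDGFRa+ less satellite cells ran from -0.0467 to 0.42 for Gpc4, from -0.44 to 0.43 for Sdc1 and from -0.0019 to 0.0306 for Sdc3, and PDGFRa+ less CD31/CD45 cells from -0.18 to 0.0233 for Gpc2. Satellite less CD31/CD45 cells ran from -0.69 to 1.498 for Gpc3, from -0.0180 to 0.0445 for Gpc5, from -0.0795 to 0.26 for Gpc6 and from -0.0553 to 0.82 for Sdc1. Shared age ran from -0.53 to 0.68 for Gpc3, from -0.0236 to 0.25 for Gpc4, from -0.0218 to 0.0209 for Gpc5, from -0.0618 to 0.11 for Gpc6, from -0.0649 to 0.19 for Sdc2 and from -0.12 to 0.32 for Sdc4. Where this leaves a population with 1 array, that array is assumed to vary like the others. Through the cell type term, the age comparison pairs the young and aged array of each population. No pairing by mouse or sort was possible, because each population and age has 1 array and the labels number no replicates across groups. Signal over background limits Sdc3, Gpc1 and Gpc5, which lie below the offset on every array. Gpc6 lies below it on the satellite and CD31/CD45 arrays, Sdc1 on the young arrays and Gpc3 on the young satellite array. Differences that rest on those arrays are compressed too.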
